A study of Mus musculus with 23 samples.

Results

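Trimethylation of histone H3 at lysine 4 (H3K4me3) was mapped once in Bach1-knockout mouse embryonic stem cells and once in wild-type (WT) cells, by chromatin immunoprecipitation (ChIP) and sequencing. These 2 of the 23 samples were chosen by their labelled antibody, and each gave 1 list of peaks, the stretches of genome with more ChIP reads than the background. The knockout list held 11157 peaks and the WT list 18779. Both lists are compared here by number, width, score, chromosome and overlap, where an overlap was at least 1 bp.

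The knockout cells carried the genotype Bach1 -/-, made with CRISPR/Cas9, and the WT cells were their labelled control. All were E14Tg2A cells, a mouse embryonic stem cell line, grown in medium with fetal bovine serum and leukemia inhibitory factor in gelatin-coated flasks. The sample titles name no clone, so the absence of BACH1 cannot be told apart from any other difference between the cultures. Further peak lists of the same genotypes covered H3K27ac, H3K4me1 and the pluripotency factor NANOG, and a line with a doxycycline-inducible, FLAG-tagged Bach1 transgene, induced for 6 hours at a labelled 0.5 μg/μL, gave 2 lists of FLAG-BACH1 peaks. RNA was measured in 3 knockout and 3 WT libraries. With 1 H3K4me3 library per genotype there was no replicate check, and no test between the genotypes was made on the peaks. Read depth of the ChIP libraries is not given in the sources used, and differences in peak number, width and score cannot be told apart from differences in depth.

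H3K4me3 marks the promoters of most active genes and many CpG islands, and broad stretches of it lie over cell identity genes. It is written by the SET1 and MLL methyltransferase complexes, removed by the KDM5 demethylases and read by proteins with PHD fingers and related domains. H3K27ac marks active promoters and enhancers, and H3K4me1 marks enhancers and the flanks of promoters. BACH1 is a heme-regulated transcription factor that represses, among others, the heme oxygenase gene.

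The knockout list was smaller and lay almost wholly inside the WT list. It had 0.594 times as many peaks and covered 33.6 Mb of the genome, against 52.8 Mb in WT cells. Of the 11157 knockout peaks, 11117 overlapped a WT peak, or 99.6% (95% exact binomial interval 99.5 to 99.7), and 40 did not, or 0.359%. Of the 18779 WT peaks, 11170 overlapped a knockout peak, or 59.5% (58.8 to 60.2), and 7609 did not, or 40.5%. A WT peak that overlapped a knockout peak is called kept below, and one that did not is called absent. By length, 94.4% of the bases in knockout peaks lay in WT peaks, and 60.1% of the bases in WT peaks lay in knockout peaks. These intervals, and all others below, cover counting error only and not the spread between cultures.

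When the WT list was shortened to its 11157 highest-scoring peaks, so that both lists were of equal number, 92.1% of the knockout peaks overlapped a WT peak and 91.9% of the WT peaks overlapped a knockout peak. The lists therefore shared most of their leading peaks, and the WT peaks without a knockout counterpart came mainly from the lower part of the WT list.

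The H3K27ac lists differed in number in the same direction as the H3K4me3 lists, with a ratio of 0.578. They had 25755 peaks in knockout cells and 44579 in WT cells, and 82.3% of the knockout peaks overlapped a WT peak while 46.1% of the WT peaks overlapped a knockout peak. The H3K4me1 lists differed in the opposite direction, with 54227 peaks in knockout cells and 36001 in WT cells, and 86.5% of the WT peaks overlapped a knockout peak. NANOG was the factor mapped in more than 1 list per genotype, and its lists showed how far numbers can differ within this series. In replicate 1 the knockout list had 0.224 times the WT number of NANOG peaks, and in replicate 2 it had 2.00 times the WT number. Each of these ratios rests on 1 list per genotype.

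Each H3K4me3 peak had a score from the peak caller, 10 times the negative log10 of the peak's p-value, and the lowest score in both lists was 50.01, close to a p of 1e-05. The scores are the authors' and grow with read depth, so ranks were taken within a list, and values set side by side between the lists are descriptions of these 2 libraries. The median score was 178.9 in knockout cells and 296.1 in WT cells, and the interquartile range ran between 98.2 and 324.6 in knockout cells and between 114 and 623 in WT cells. The highest score was 3100 in knockout cells and 3220 in WT cells.

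The ratio of knockout to WT peak number fell as the score floor rose. At 50 or more the knockout list had 0.594 times the WT number. At 200 or more there were 5022 peaks in knockout cells and 11361 in WT cells, a ratio of 0.442. At 800 or more there were 297 in knockout cells and 3177 in WT cells, a ratio of 0.0935. The WT scores had a second hump above 400 that the knockout scores lacked, as the histogram of scores shows. These ratios compare numbers past a score and not the loss of the same peaks, which is given below. Scores that are lower throughout a list tend to make such ratios fall as the floor rises.

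**Figure D1:**
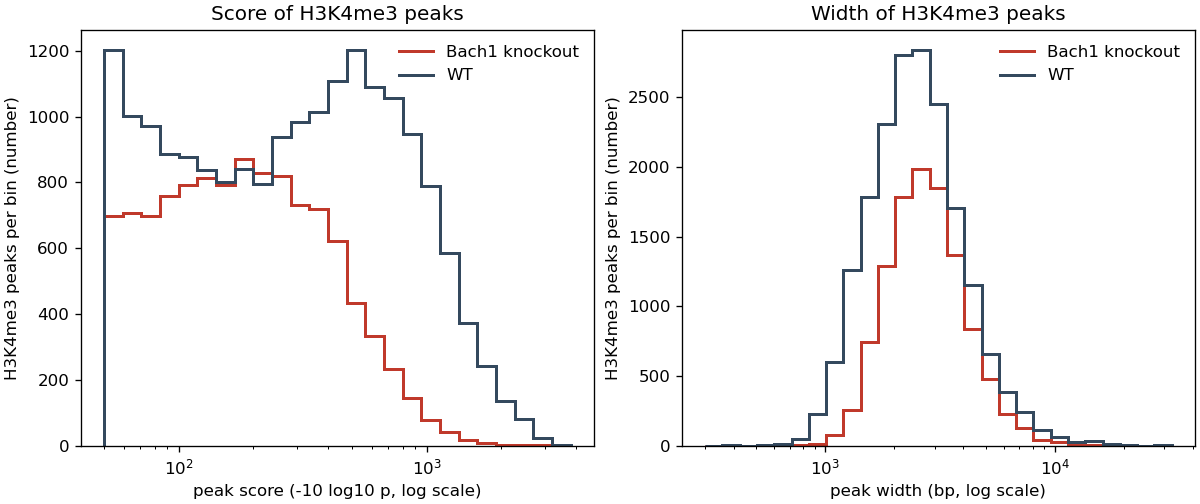
Number of H3K4me3 peaks by score (left, 10 times the negative log10 of the caller's p-value) and by width in bp (right), both on log axes, in 1 knockout and 1 WT library. The knockout curve lies below the WT curve at scores over 400 and at all widths near the mode, and knockout peaks had a median score of 178.9, against 296.1 in WT cells.

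Widths differed little between the lists, and the direction depended on how they were compared. The median width was 2708 bp in knockout cells (95% order-statistic interval 2683 to 2733) and 2446 bp in WT cells (2427 to 2466). From the 5th to the 95th percentile, widths ran between 1518 and 5430.4 bp in knockout cells and between 1209 and 5623.5 bp in WT cells. Narrow and very broad peaks were both in short supply in the knockout list, against the ratio of 0.594 over all peaks. Peaks under 1500 bp numbered 511 in knockout cells, 4.58% of that list, and 2646 in WT cells, 14.1% of that list. Very broad peaks of 8000 bp or more numbered 106 in knockout cells and 266 in WT cells, a ratio of 0.398, while for peaks of 4000 bp or more the ratio was 0.657.

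Taking the same places in both genotypes turned the width difference round. There were 10875 pairs in which 1 knockout peak overlapped 1 WT peak and neither overlapped another. In these pairs the median width was 2694 bp in knockout cells and 2887 bp in WT cells, and the median of the knockout to WT ratio was 0.943 with an interquartile range of 0.846 to 1.03. The knockout peak was the narrower one in 7202 pairs, or 66.2%. The knockout peak started a median 59 bp later and ended a median 62 bp earlier (a shift of -62 bp), each median taken separately. It lay within the WT peak at both ends in 4298 of the 10875 pairs, and the WT peak lay within the knockout peak in 1720. The part of read depth or enrichment in these widths was not tested.

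The ratio fell with the width of the WT peak. In the decile of the pairs with the narrowest WT peaks, between 419 and 1834 bp, the median ratio was 1.02 and 43.1% of the knockout peaks were narrower. In the decile with the broadest WT peaks, over 5019 bp, the median ratio was 0.832 and 85.8% were narrower. Of the 148 pairs in which the knockout peak had less than 50% of the WT width, 102 were in this broadest decile. A ratio grouped by its own denominator tends to fall as that denominator rises even between like lists, so this trend is given as a description. Over WT score there was no such fall: the median ratio was 0.934, 0.930, 0.951 and 0.956 in quartiles 1 to 4 of the pairs.

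**Figure D2:**
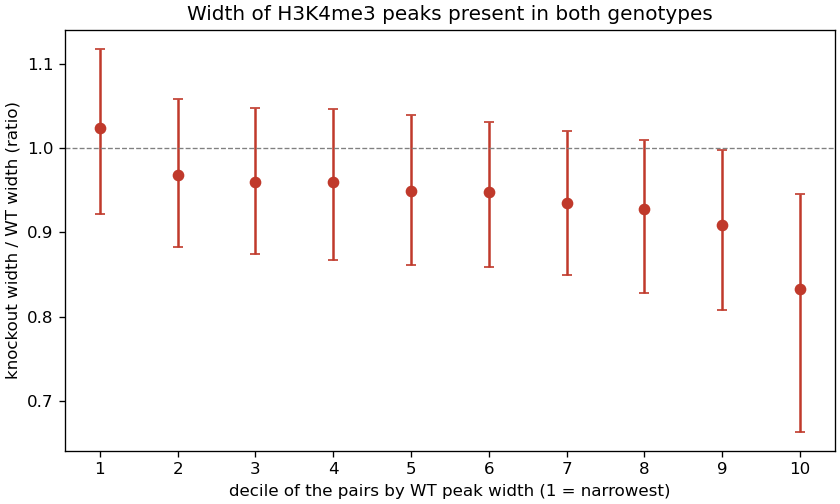
Knockout to WT width ratio of 10875 paired H3K4me3 peaks, in deciles of the pairs by WT width. Points are medians and bars span the interquartile range of the pairs, with 1 library per genotype; the median ratio was 1.02 in the narrowest decile and 0.832 in the broadest.

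Scores in the pairs kept their order. Across the 10875 pairs Spearman's rho between the knockout score and the WT score was 0.886, a description over peaks that share the same 2 libraries. The median score was 179.3 in knockout cells and 545.15 in WT cells, and the knockout score was the lower one in 10831 pairs, or 99.6%. The knockout score was thus lower almost everywhere, in each decile of WT width (98.7 to 99.9% of pairs). The part of a difference in depth or in enrichment between the 2 libraries in this result was not tested.

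Whether a WT peak was kept followed its score closely. The WT list was cut into deciles by score. In the lowest decile, with scores of 50.01 to 66.67, 36 of 1878 peaks were kept, or 1.92% (1.35 to 2.64). The share kept was 11.4% in decile 3, 29.7% in decile 4, 65.1% in decile 5 and 88.3% in decile 6. In the highest decile, with scores of 1022 and more, 1876 of 1878 peaks were kept, or 99.9% (99.6 to 100). The change was steepest between scores of about 137 and 408, that is in the middle of the WT list.

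The kept WT peaks had a median score of 543.8 and a median width of 2888.5 bp, and the absent ones a median score of 96.87 and a median width of 1848 bp. By width alone, 12.03% of the narrowest decile of WT peaks were kept and 86.7% of the broadest. Within peaks of like score this relation was weaker and changed direction. In the lowest quartile of the scores, 3.09% of the narrowest quartile of WT peaks were kept and 7.55% of the broadest. In quartile 3 of the scores, 96.2% of the narrowest quartile of WT peaks were kept and 89.0% of the broadest, and in quartile 2 the shares were 43.5% and 40.2%. Absent peaks also lay closer to another WT peak, with a median gap of 12719 bp, against 19806.5 bp for kept peaks. At equal score the share kept had no steady order over the gap: it was 62.1% under 1000 bp, 57.2% at 1000 bp to under 5000 bp, 58.8% at 5000 bp to under 20000 bp and 60.2% at 20000 bp or more.

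BACH1 occupancy came from another library, the induced FLAG-BACH1 ChIP, whose merged list has 9321 regions and no score. Of the knockout H3K4me3 peaks 14.9% overlapped a FLAG-BACH1 region, and of the WT peaks 13.3% did. WT peaks at FLAG-BACH1 regions were kept more often than the others: 1691 of 2506 were kept, or 67.5% (65.6 to 69.3), against 58.2% (57.5 to 59.0) of the 16273 away from them, a difference of 9.23 percentage points (7.22 to 11.2). The peaks at FLAG-BACH1 regions also had higher scores, with a median of 447.1, against 280.3 away from them.

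Within peaks of like WT score the difference at FLAG-BACH1 regions was small and mostly of the opposite sign. It was 0.33, -2.65, -1.38 and -0.12 percentage points in quartiles 1 to 4 of WT score. With both classes weighted to the same deciles of score, 58.9% were kept at FLAG-BACH1 regions and 59.6% away from them, a difference of -0.70. In decile 4, for example, 28.6% (22.5 to 35.3) of 203 peaks at FLAG-BACH1 regions and 29.8% (27.6 to 32.0) of 1675 peaks away from them were kept. The shorter FLAG-BACH1 list from a single caller, with 2134 peaks, gave a raw difference of 1.28 points (-2.92 to 5.34). Weighted to the same deciles of score, 57.1% were kept at its peaks and 59.6% away from them, a difference of -2.42.

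**Figure D3:**
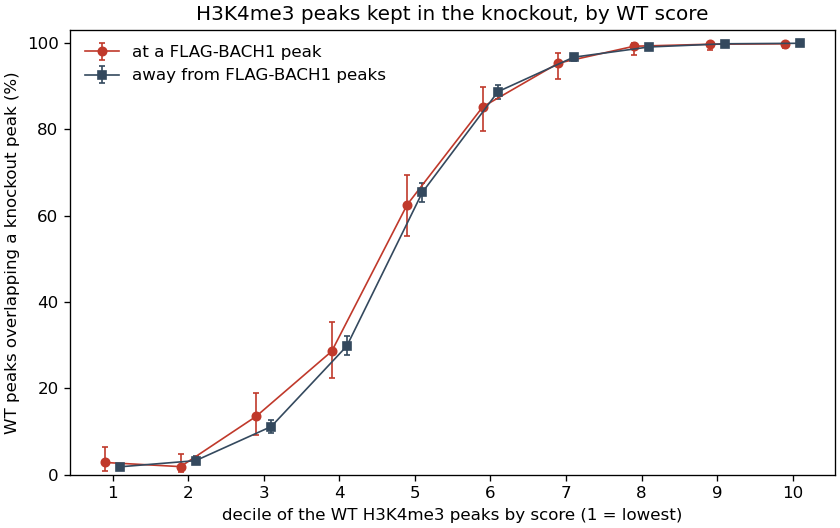
Share of WT H3K4me3 peaks that overlapped a knockout peak (%), by decile of WT score from lowest to highest, at FLAG-BACH1 regions and away from them; bars are 95% exact binomial intervals, which cover counting error only. Both curves climb together, and in decile 4 the shares were 28.6% at FLAG-BACH1 regions and 29.8% away from them.

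WT peaks that carried H3K27ac, the mark of active promoters and enhancers, were kept far more often. Of 14745 WT H3K4me3 peaks with a WT H3K27ac peak, 69.9% (69.1 to 70.6) were kept, against 21.5% (20.2 to 22.8) of the 4034 without one. The peaks with H3K27ac had a median score of 401.8, and those without had 95.2. With both classes weighted to the same deciles of score, 59.9% were kept with H3K27ac and 58.0% without, so the difference of 48.4 points came down to 1.87. Within quartiles 1 to 4 of score it was 0.92, 11.9, 1.86 and 3.002 points.

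H3K4me1 and NANOG gave smaller differences before weighting. WT H3K4me3 peaks with a WT H3K4me1 peak were kept in 62.9% of cases, against 54.8% of those without. This difference of 8.12 points became -2.51 after weighting to the same score, larger in size than the 1.87 with H3K27ac. In decile 3 of score 12.1% (10.1 to 14.3) were kept with H3K4me1 and 10.6% (8.68 to 12.8) without. In decile 5 the shares were 60.1% (56.9 to 63.1) with it and 70.7% (67.6 to 73.7) without. For the WT NANOG list of replicate 1 the shares were 60.4% with and 59.4% without, a difference of 0.98 points that became -0.26. For that of replicate 2 they were 74.6% and 56.1%, a difference of 18.5 points that became -0.03 after weighting. The weighted value of replicate 1 averages opposite differences. In decile 3 of score 20.3% (14.0 to 27.8) were kept with a NANOG peak and 10.7% (9.25 to 12.2) without, while in decile 7 91.3% (84.9 to 95.6) were kept with one and 96.9% (96.0 to 97.7) without.

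At the same places, the knockout lists of the other marks also differed between absent and kept H3K4me3 peaks. Of the 4441 absent peaks that had H3K27ac in WT cells, 2372 also had it in knockout cells, or 53.4%, while among the kept peaks 8439 of 10304 did, or 81.9%. In score quartile 2, where both classes were well filled, these shares were 58.8% at absent peaks and 62.6% at kept peaks. Of the 3552 absent peaks without H3K4me1 in WT cells, 2039 had an H3K4me1 peak in knockout cells, or 57.4%, against 2882 of 4299 kept peaks, or 67.0%. In score quartile 2 the order was the other way, with 61.3% at absent peaks and 53.0% at kept peaks. Of the 4057 absent peaks with H3K4me1 in WT cells, 184 had none in knockout cells, or 4.54%, against 313 of 6871 kept peaks, or 4.56%. Over all WT H3K4me1 peaks 13.5% overlapped no knockout H3K4me1 peak, a share counted per H3K4me1 peak and not per H3K4me3 peak. The H3K4me1 list covered 111.8 Mb in knockout cells and 65.6 Mb in WT cells.

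H3K4me3 peaks lay on all autosomes and on X and Y, and the spread over chromosomes was alike in both genotypes. The share of the list that lay on an autosome differed between knockout and WT by -0.63 to 0.41 percentage points. Chromosome 11 held the most peaks in both, with 966 in knockout cells and 1744 in WT cells, and among the autosomes chromosome 18 held the fewest, with 318 in knockout cells and 544 in WT cells. The share of WT peaks kept ran from 54.4% (50.7 to 58.0) on chromosome 6 to 64.3% (61.2 to 67.3) on chromosome 1. Chromosome X kept 63.3% and Y, with 23 WT peaks, 73.9% (51.6 to 89.8).

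Chromosomes 8 and 11 had the lowest shares once score was held equal, and they were singled out after their values were seen. Weighted to the deciles of WT score, 54.5% of the WT peaks were kept on chromosome 8 and 53.1% on chromosome 11, against 60.3% over all other chromosomes together. Chromosome X lay as far out on the other side, with 67.5% kept at equal score. Of the 7632 WT peaks with a score of 400 or more, 97 were absent. Of these, 30 lay on chromosome 11, among 787 such peaks, and 12 on chromosome 8, among 501. Together both chromosomes lacked 3.26% (2.36 to 4.38) of these strong peaks, and the other chromosomes 0.867% (0.654 to 1.13). Among those others chromosome 6 lacked 8 of 225, or 3.56%, a share above that of chromosome 8 at 2.40%.

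H3K4me3 peaks were also widest on these chromosomes in both genotypes. On chromosome 11 the median width was 3378.5 bp in knockout cells and 2806 bp in WT cells, and on chromosome 8 it was 3196 bp in knockout cells and 2694 bp in WT cells. The merged FLAG-BACH1 list had 2071 of its 9321 regions on chromosome 11 and 1079 on chromosome 8, while no other chromosome had more than 586. The part of chromosome copy number in these values was not tested. Without chromosomes 8 and 11, 60.04% of the WT peaks were kept, the median width was 2624 bp in knockout cells and 2397 bp in WT cells, and the raw difference at FLAG-BACH1 regions was 9.62 points.

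**Figure D4:**
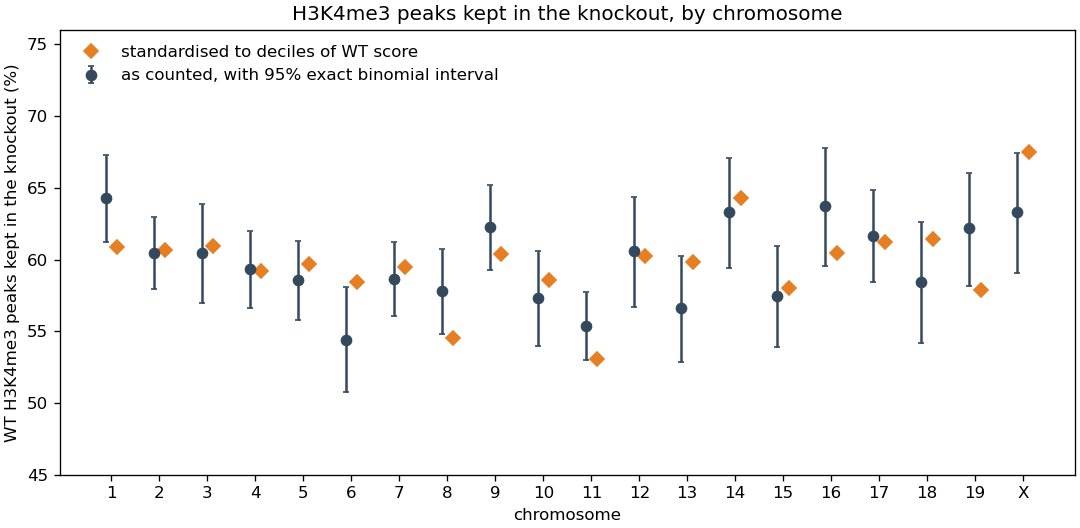
Share of WT H3K4me3 peaks kept in the knockout (%), by chromosome. Circles are shares as counted with 95% exact binomial intervals (counting error only) and diamonds are shares weighted to equal deciles of WT score; the axis starts at 45%, chromosome Y with 23 peaks is left out, and the lowest diamonds are those of chromosomes 11 (53.1%) and 8 (54.5%).

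All positions of single peaks are in mouse build mm9. Which gene a peak belongs to is not given here, because no annotation of that build was used. The 5 WT peaks with the highest scores were all kept. The strongest, chr8:90481266-90487227, had a width of 6062 bp and a score of 619.1 in knockout cells and a width of 5962 bp and a score of 3220 in WT cells. At chr8:87182750-87190846 the score was 660.2 in knockout cells and 3132 in WT cells. At chr8:86420639-86429811 the score was 2573 in knockout cells and 3100 in WT cells, and the knockout peak was 7824 bp wide against 9173 bp in WT cells. The remaining pair of strong peaks lay on chromosomes 7 and 19. A score of exactly 3100 was shared by 2 knockout and 5 WT peaks, so little can be read from the order of scores near the top. All 5 carried H3K27ac, H3K4me1 and a FLAG-BACH1 region.

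Of the 5 widest WT peaks 4 were kept and narrower in knockout cells, as peaks chosen for their WT width would tend to be. The widest, on chromosome 18, was 10441 bp in knockout cells and 28526 bp in WT cells, and its score was the higher one in knockout cells, at 430 against 390.8 in WT cells. At chr12:87807057-87834710 the widths were 18456 bp in knockout cells and 27654 bp in WT cells. At chr11:97514580-97540485 they were 20103 bp in knockout cells and 25906 bp in WT cells, and at chr9:114451875-114474651 they were 19678 bp in knockout cells and 22777 bp in WT cells. The fifth, chr13:44862014-44884019, had 22006 bp and a low score of 200.7 in WT cells and no knockout peak, and it was the one of the 5 without H3K27ac in either genotype.

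Strong WT peaks with no knockout peak were few. The highest by score was chr11:23204790-23211047, 6258 bp wide with a score of 1338, where the nearest knockout H3K4me3 peak lay 42244 bp away. It overlapped H3K27ac and H3K4me1 peaks in both genotypes and a FLAG-BACH1 region. Next was chr11:69490714-69501250, 10537 bp wide with a score of 1083, which also had H3K27ac and H3K4me1 in both genotypes and a knockout H3K4me3 peak 3812 bp away. The third and the fifth lay on chromosome Y, with scores of 948.4 and 757, and carried none of the other marks, and the knockout list skips a peak number at both places, which is taken up below. The fourth, chr5:113773376-113778597, had a score of 811.1 and carried H3K27ac and H3K4me1 in both genotypes and NANOG peaks in all 4 NANOG lists.

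The 97 absent WT peaks with a score of 400 or more are set beside the 7535 kept ones. Score was not held equal here. The absent ones had a median score of 468.1 and a highest score of 1338, while the kept ones reached 3220. An H3K27ac peak was there in knockout cells at 80.4% of the absent and 85.9% of the kept peaks, and in WT cells at 93.8% of the absent and 96.9% of the kept peaks. An H3K4me1 peak was there in knockout cells at 93.8% of the absent and 88.5% of the kept peaks, and in WT cells at 78.4% of the absent and 66.2% of the kept peaks. The WT NANOG list of replicate 1 overlapped 21.6% of the absent and 7.63% of the kept peaks, and that of replicate 2 overlapped 34.0% of the absent and 26.3% of the kept peaks. Regions of the merged FLAG-BACH1 list lay at 15.5% of the absent and 17.5% of the kept peaks, and peaks of the single-caller list at 7.22% of the absent (7 of 97) and 3.26% of the kept peaks. The H3K4me1 and NANOG shares were the higher ones at absent peaks, and the 2 FLAG-BACH1 lists gave opposite orders.

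The 40 knockout peaks with no WT peak were weak, with a median score of 68.2, and 5 of them lay on chromosome Y. The highest were chr6:117854805-117860992 with a score of 652.3, chr8:123058429-123064924 with 498.7 and chr11:102876152-102879311 with 279.5. These 3 carried H3K27ac and H3K4me1 peaks in both genotypes, and so did chr4:130218375-130226092 with 202.95. The fifth, chr14:52717866-52722323 with 190.7, carried H3K4me1 in both genotypes and H3K27ac in neither. The widest knockout peak was also among the 40. It lay at chr11:77497611-77518548, 20938 bp wide with a score of 91.2, and carried H3K27ac and H3K4me1 in both genotypes, and the nearest WT H3K4me3 peak was 57454 bp away.

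Peaks had been removed from both lists after calling. The callers' running numbers reached 11407 in the knockout list, 250 more than the peaks listed, and 19116 in the WT list, 337 more than the peaks listed. At 4 of the 40 knockout peaks with no WT peak, including those on chromosomes 6, 11 and 14 named above, the WT list skips a number at that place, and at 303 of the 7609 absent WT peaks the knockout list does. At such a place a peak may have been called and then removed, so these peaks cannot be counted as specific to 1 genotype.

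RNA of the proteins that write, erase and read H3K4me3 was compared over 3 knockout and 3 WT libraries. Values are TPM, transcript abundances scaled to transcript length and to the library, and means are given with the SD of 3 libraries. Fold changes were computed on log2(TPM + 1), knockout minus WT, a scale that compresses the differences of genes with little RNA. Called genes had an adjusted p under 0.05 in limma with Benjamini-Hochberg adjustment. Of 12196 genes tested, 28.3% were higher and 54.8% lower in the knockout, and the median gene stood at -0.20. Quantile normalization brought that median to -0.03, with 4612 genes higher and 5087 lower, and median-of-ratios scaling brought it to -0.003, with 4869 higher and 4871 lower, against 3446 higher and 6681 lower as deposited. Falls of about this size are therefore not separate from the shift of all genes. Bach1 itself had 1.69, 1.76 and 2.045 TPM in knockout libraries, against 2.35, 2.50 and 2.70 TPM in WT libraries, so the groups did not overlap. Its log2 fold change was -0.31 (SE 0.0717, adjusted p = 0.00282), and it missed the threshold after median-of-ratios scaling (adjusted p = 0.073).

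Stem cell identity and feeder cells were checked by markers. All 8 embryonic stem cell markers were tested, and 4 were higher and 4 lower, where 28.3% of all tested genes were higher and 54.8% lower. The lowest value of these markers in any library was 58.1 TPM for Sall4. Levels changed well beyond the median of all genes for some of them. Nanog averaged 116 TPM in knockout libraries and 306 TPM in WT libraries (log2 fold change -1.39), Esrrb averaged 68.8 TPM in knockout libraries and 124 TPM in WT libraries (-0.84), and Sall4 averaged 113 TPM in knockout libraries and 59.3 TPM in WT libraries (0.92). The part of these changes in the H3K4me3 peak lists was not tested. Of 8 fibroblast markers 7 stayed below 1 TPM in all libraries, among them the collagens Col1a1, Col1a2 and Col3a1. Thy1, a surface protein of fibroblasts and other cells, was the exception, with 11.4 to 12.4 TPM in knockout libraries and 2.95 to 3.33 TPM in WT libraries.

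Subunits of the H3K4 methyltransferase complexes were called in both directions. Of 20 tested members 8 were higher and 8 lower, where 28.3% of all tested genes were higher and 54.8% lower. The median log2 fold change of the members was -0.05, against -0.20 over all tested genes, and 14 of the 20 stood above that median. The counts were 11 higher and 5 lower after quantile normalization, where 4612 of all 12196 tested genes were higher and 5087 lower. After median-of-ratios scaling they were 13 higher and 5 lower, where 4869 of all tested genes were higher and 4871 lower. Among the members with a catalytic SET domain, picked out after their values were seen, Kmt2b, Kmt2c, Kmt2d and Setd1b were higher. Kmt2a was called higher with an adjusted p of 0.0328 in limma and missed the threshold without any 1 of the 6 libraries (adjusted p 0.0531 to 0.0955). Setd1a was not called as deposited and was called higher after either scaling. Smyd3, another methyltransferase, was called lower (log2 fold change -0.18) and stood at 0.04 and 0.02, not called, after quantile and median-of-ratios scaling. Prdm9, a meiotic enzyme, was too low to be tested. Setd1b, the catalytic subunit of a SET1 complex, had 2.525, 2.47 and 2.75 TPM in knockout libraries, against 0.99, 0.93 and 1.00 TPM in WT libraries, which is 0.86 on the log2 scale (SE 0.0614, adjusted p = 1.24e-06). Kmt2c, an MLL enzyme that monomethylates enhancers, had 1.3, 1.296 and 1.266 TPM in knockout libraries and 0.666, 0.792 and 0.822 TPM in WT libraries. All WT values of Kmt2c lay under the filter of 1 TPM, so it was tested only through its knockout libraries. The WT values of Setd1b lay close to that filter. Kmt2b, the MLL enzyme known for trimethylation at poised promoters in embryonic stem cells, averaged 8.87 ± 0.333 TPM in knockout libraries and 7.31 ± 0.107 TPM in WT libraries. Psip1, a chromatin tether of MLL complexes, averaged 44.0 ± 2.79 TPM in knockout libraries and 31.7 ± 1.14 TPM in WT libraries. The groups did not overlap in any of these 4 genes, which the rule for naming genes required.

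Wdr5, which holds the shared core of these complexes to the enzyme, had 49.8, 48.2 and 48.9 TPM in knockout libraries, against 96.0, 95.9 and 95.8 TPM in WT libraries, which is -0.96 on the log2 scale (SE 0.0246, adjusted p = 2.04e-09). Ash2l, another core subunit, averaged 102 ± 1.42 TPM in knockout libraries and 143 ± 1.72 TPM in WT libraries. The core subunits Rbbp5 and Dpy30 were not called as deposited, and after median-of-ratios scaling both were called higher, with log2 fold changes of 0.16 and 0.18. Rbbp5 averaged 16.0 TPM in knockout libraries and 16.7 TPM in WT libraries, and Dpy30 averaged 222.8 TPM in knockout libraries and 231.2 TPM in WT libraries. Ncoa6 averaged 3.78 ± 0.478 TPM in knockout libraries and 9.79 ± 0.272 TPM in WT libraries, and Paxip1 averaged 4.84 ± 0.216 TPM in knockout libraries and 9.94 ± 0.112 TPM in WT libraries. Both belong to the complexes with KMT2C or KMT2D. Wdr5, Ash2l, Ncoa6 and Paxip1 stayed lower under both other scalings.

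Of 9 tested genes of H3K4 demethylases and their partners 1 was higher and 5 lower, where 28.3% of all tested genes were higher and 54.8% lower. Their median log2 fold change was -0.19, against -0.20 over all tested genes. The counts were 3 higher and 4 lower after quantile normalization, where 4612 of all 12196 tested genes were higher and 5087 lower. After median-of-ratios scaling they were 3 higher and 3 lower, where 4869 of all tested genes were higher and 4871 lower. Kdm5b, the KDM5 enzyme with the most RNA here per transcript length, averaged 37.4 TPM in knockout libraries and 42.9 TPM in WT libraries, a log2 fold change of -0.19 that is close to the median of all genes and turned to 0.04, not called, after median-of-ratios scaling. Kdm5a was not called, and Kdm5c was not called as deposited but was called higher, at 0.14, after median-of-ratios scaling. Kdm2b, a CpG-island binding demethylase, averaged 11.3 ± 0.326 TPM in knockout libraries and 20.4 ± 0.498 TPM in WT libraries (log2 fold change -0.80, adjusted p = 1.08e-07). Riox1, a JmjC oxygenase also called NO66, averaged 6.27 ± 0.203 TPM in knockout libraries and 11.9 ± 0.396 TPM in WT libraries, and Rcor1, a partner of the demethylase KDM1A, averaged 1.54 ± 0.0987 TPM in knockout libraries and 2.40 ± 0.0882 TPM in WT libraries. Kdm1a was lower by a log2 fold change of -0.22 as deposited, and after median-of-ratios scaling the value was 0.0096 and not called. Kdm1b, a relative of Kdm1a that removes lower methylation states of H3K4, averaged 19.4 ± 1.16 TPM in knockout libraries and 15.1 ± 0.337 TPM in WT libraries, and was the 1 member called higher.

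**Figure D5:**
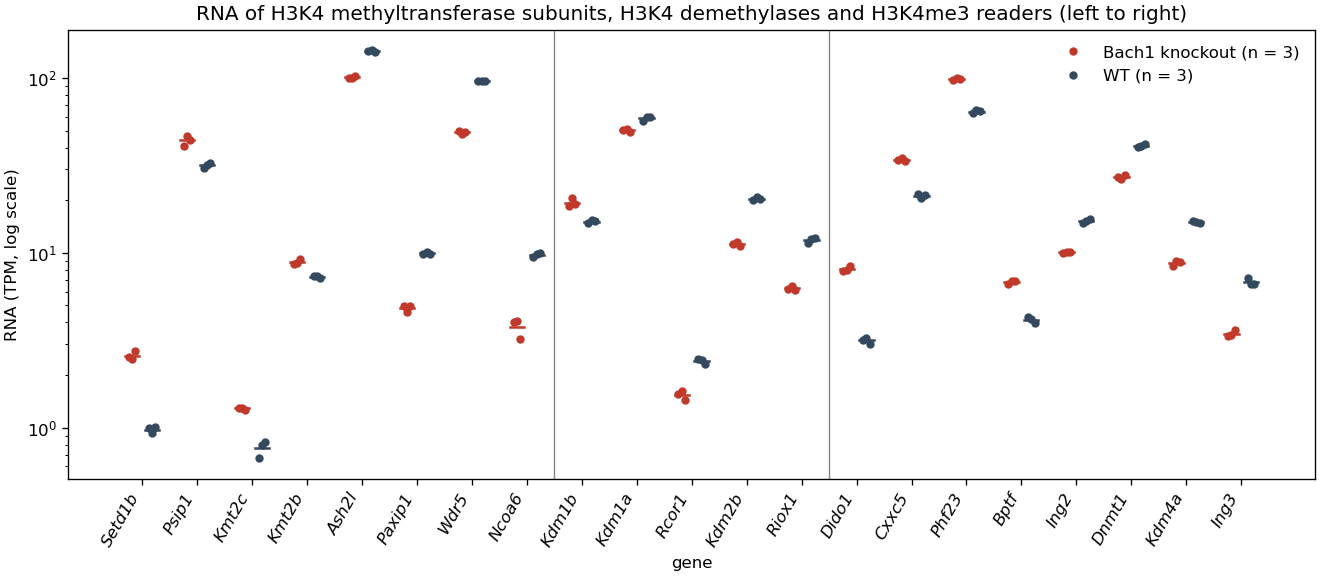
RNA in TPM (log axis) of the named genes in 3 knockout and 3 WT libraries, in the order methyltransferase complexes, demethylases, and readers and CpG-island binders. Points are libraries and bars are means; Wdr5 sits near 49 TPM in knockout libraries and near 96 TPM in WT libraries.

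Among 22 tested readers of H3K4me3 and binders of CpG islands 9 were higher and 10 lower, where 28.3% of all tested genes were higher and 54.8% lower. Their median log2 fold change was -0.02, against -0.20 over all tested genes. The counts were 11 higher and 6 lower after quantile normalization, where 4612 of all 12196 tested genes were higher and 5087 lower. After median-of-ratios scaling they were 12 higher and 6 lower, where 4869 of all tested genes were higher and 4871 lower. Dido1, a PHD finger protein, had 7.88, 7.98 and 8.405 TPM in knockout libraries, against 3.18, 3.25 and 3.025 TPM in WT libraries, which is 1.13 on the log2 scale (SE 0.0528, adjusted p = 7.42e-08). Bptf, the reader subunit of the NURF remodeler, averaged 6.84 ± 0.147 TPM in knockout libraries and 4.15 ± 0.158 TPM in WT libraries. Phf23, another PHD finger protein, averaged 98.7 ± 1.76 TPM in knockout libraries and 64.4 ± 1.44 TPM in WT libraries, and Cxxc5, a CXXC domain protein, 34.1 ± 0.779 TPM in knockout libraries and 21.2 ± 0.548 TPM in WT libraries.

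Of the ING family of readers, Ing2 and Ing3 were lower under all scalings. Ing3, a subunit of the NuA4 acetyltransferase, averaged 3.45 ± 0.144 TPM in knockout libraries and 6.83 ± 0.271 TPM in WT libraries, and Ing2, of a SIN3 deacetylase complex, averaged 10.1 ± 0.0662 TPM in knockout libraries and 15.2 ± 0.390 TPM in WT libraries. Ing1 and Ing4 were called lower as deposited, with log2 fold changes of -0.27 and -0.24 that lie -0.07 and -0.04 from the median of all genes and were not called after either scaling, and Ing5 was called, as higher, only after either scaling. Kdm4a, which reads H3K4me3 through its Tudor domains, averaged 8.74 ± 0.282 TPM in knockout libraries and 14.9 ± 0.195 TPM in WT libraries, and the maintenance DNA methyltransferase Dnmt1 27.2 ± 0.669 TPM in knockout libraries and 41.1 ± 0.928 TPM in WT libraries. RNA levels show neither the amount nor the activity of these proteins, and their part in the H3K4me3 peak lists was not tested.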

How the data were processed

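The knockout and WT H3K4me3 peak lists are the authors' deposited files, 1 per library, with a score in column 5. Their layout, peak names and lowest score are those of the older MACS, so the score was read as 10 times the negative log10 of p. The submitters' processing notes give mm9 as the build, list MACS2, Bowtie2, Trim Galore, limma, STAR and StringTie 1.3.4d for ChIP and HOMER, HISAT2, Trim Galore and limma for RNA, and state no step for any of them. The authors' H3K4me1 and NANOG lists have the layout of MACS2 with a fold enrichment ratio per peak; of these, of the H3K27ac lists and of both FLAG-BACH1 lists only positions were used. No source used here says what the merged FLAG-BACH1 list merges. Input samples were not analysed here.

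Overlaps (at least 1 bp), exact Clopper-Pearson and order-statistic 95% intervals, and intervals of differences by Newcombe's method were computed in Python 3.11.15 with numpy 2.4.6, scipy 1.17.1 and pandas 2.3.3. Weighted shares are direct standardisation to the deciles of all WT scores. Overlap was counted without regard to depth, which is unknown. Figures were drawn with matplotlib 3.10.9.

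RNA values are TPM deposited by the authors, 1 transcript per gene, and keep no read depth. Genes with at least 1 TPM in 3 of 6 libraries were tested on log2(TPM + 1) with limma 3.58.1 in R 4.3.3 (trend, Benjamini-Hochberg adjustment), a procedure first checked on artificial data. The design text calls them biological triplicates, and the p-values measure the spread between these libraries.

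Named peaks are the 5 highest-scoring and 5 widest WT peaks and the 5 highest-scoring unmatched peaks of each list; the widest knockout peak was added after its values were seen. Named genes are Bach1 and up to 4 called members of each list per direction with the largest change and no overlap between genotypes; Kdm5a, Kdm5b, Kdm5c, Kmt2a, Kmt2d, Setd1a, Smyd3, Prdm9, Rbbp5, Dpy30, Ing1, Ing4, Ing5 and the markers are named beside these. The lists and the comparisons were chosen with earlier results of these data known. Peaks were not assigned to genes, since the files are in mm9 and no gene positions in that build were used, so RNA of genes at kept and absent peaks was not analysed here.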

Additional observations from a re-analysis of the deposited data

How the results depend on the processing

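The peak results were recomputed under other settings, those without chromosomes 8 and 11 and those weighted to deciles of WT score being chosen after seeing the data; 25 of 56 values stayed within the counting interval of the reported one or, for number ratios, close to it. With a score of at least 100 in both lists, 56.4% of WT peaks were kept, median widths were 2928 bp in knockout and 2703 bp in WT cells, and the differences at FLAG-BACH1 regions and with H3K27ac were 11.6 and 42.2 points. Merging peaks under 1000 bp apart gave 60.6% kept and a WT width of 2483 bp, an overlap of 50% of the peak gave 58.5% kept, and a gap of up to 1000 bp gave 60.8% kept and 46.6 points with H3K27ac. With equally many WT peaks the number ratio is 1 by construction, 91.9% of WT and 92.1% of knockout peaks overlapped, and the WT width was 2943 bp, above that of the knockout. Without chromosomes 8 and 11 widths were 2624 bp in knockout and 2397 bp in WT cells. The FLAG-BACH1 difference was 1.28 points with the single-caller list, 0.33, -2.65, -1.38 and -0.12 in quartiles of WT score, -0.40, -5.38, -1.11 and 1.04 in quartiles of WT width, and -0.70 after weighting to score. The H3K27ac difference was 0.92, 11.9, 1.86 and 3.002 points in quartiles of WT score and 1.87 after weighting. Both pairs of classes differ in WT score.

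Counts of methyltransferase members were 13 higher and 5 lower after median-of-ratios scaling and 5 lower after quantile normalization. Demethylases had 3 higher under both scalings and 3 lower under median-of-ratios, and readers 6 lower under both. Of all 12196 tested genes, 4869 were higher and 4871 lower under median-of-ratios scaling. Under quantile normalization 4612 of them were higher and 5087 lower. Kdm1a reversed to 0.0096 under median-of-ratios scaling, and Bach1 missed the threshold there. Leaving out 1 RNA library at a time kept the direction and call of each gene named by the rule except Kmt2c, which fell below the filter and could not be fitted without a knockout library. This left 6 to 7 methyltransferase members higher and 6 to 9 lower. Replicate numbers did not pair the RNA libraries, as deviations of same-numbered libraries correlated by -0.003, 0.0696 and -7.91e-04. A replicate block gave 7 methyltransferase members higher and 8 lower, 1 and 5 demethylases, 9 and 11 readers, and of the genes named by the rule none changed its call; Kmt2a, named beside them, was lost (adjusted p = 0.0596). RNA of genes at kept and absent peaks was not run, for want of gene positions in mm9. With 1 library per genotype and unknown depth, peak numbers, widths and scores limit every comparison of the lists.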
